A study of Danio rerio with 60 samples.

Results

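All 30 libraries of the resorcinol experiment, of 60 libraries in the whole series, were compared by the replicate letter that their descriptions carry, A to E. Each letter names 6 pools, 1 from every dose group, and is called a set here. The question was which genes and which tissues' transcripts differed between the 5 sets at every dose of resorcinol, a benzene ring with a pair of hydroxyl groups that is known as an inhibitor of thyroid peroxidase. Every pool held 20 whole zebrafish larvae of the AB/Tub background, which had been kept in sealed 96-well plates in buffered E3 medium from 72 to 120 hours after fertilization. All 30 pools are listed with 1% of a carrier that the labels do not name. The control group had no resorcinol, and the other 5 groups received resorcinol at 405, 40.5, 4.05, 0.405 or 0.0405 µM. Titles and treatment labels of the dosed pools carry the short name of the series' other compound, raloxifene, so the groups were taken from the descriptions. The labels do not say what a letter stands for, such as a clutch of eggs, a plate or a day, and the sets are therefore described only by what was measured in them.

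A whole larva is a mixture of all organs, and its RNA is dominated by skeletal muscle, skin, brain and eye. During the days covered here zebrafish larvae use up their yolk, the liver and the exocrine pancreas grow and start to secrete plasma proteins and digestive enzymes, the gut opens, and the retina and lens add differentiated cells. The exocrine pancreas supplies the zymogens of digestion, hepatocytes supply fibrinogen, complement and apolipoproteins, and lens fibres are filled with crystallins. In bulk samples of this kind, fewer cells of a type and less RNA per cell cannot be told apart.

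The values were normalized counts, that is, reads per gene divided by 1 factor per library. Recovered depth was 7.78 to 12.1 M reads per library, except 30.7 M in the set A library at 405 µM. All pairs of libraries of 1 set differed by more than counting error (chi-square over genes of at least 2.66 per degree of freedom). In set C, the library labelled 4.05 µM had 66.5 normalized counts of opn1mw2, a green cone opsin, and the library labelled 40.5 µM had 383, whereas in the other 4 sets opn1mw2 was lower at 40.5 than at 4.05 µM. The labels were kept, and the counts over sets and doses are also given without these 2 libraries; pairwise counts of sets were not repeated without them. Of 27488 genes, 19583 reached 10 normalized counts in at least 5 libraries and were tested.

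The 5 sets differed in most of the transcriptome. A limma F test over the sets, with dose group as block, called 17295 of the 19583 genes at a Benjamini-Hochberg adjusted p under 0.05, which is 88.3%. Set means spanned at least 4-fold in 2044 of these genes, or 10.4%. Of the summed variance of log2 levels, 69.1% went with the set, 6.83% with the dose group and 24.1% with neither. These are shares of uncorrected sums of squares, to which spread between pools adds also where groups do not differ. The 6.83% is therefore not an estimate of variance due to dose. Taken over all sets, larvae of 1 set were measured as more alike across a wide range of doses than larvae of 1 dose were across sets. The root mean square log2 difference had a median of 0.435 over the 75 pairs of libraries of the same set and of 0.810 over the 60 pairs of the same dose in other sets. Between sets B and C, at equal or other doses, the median was only 0.422. That is less than within set A (0.556) or D (0.544) and more than within B (0.409), C (0.374) or E (0.387). For 29 of the 30 libraries the nearest library belonged to the same set. The exception was set C at 0.0405 µM, which lay 0.416 from set B at 405 µM and 0.435 from its nearest library in set C.

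**Figure D1:**
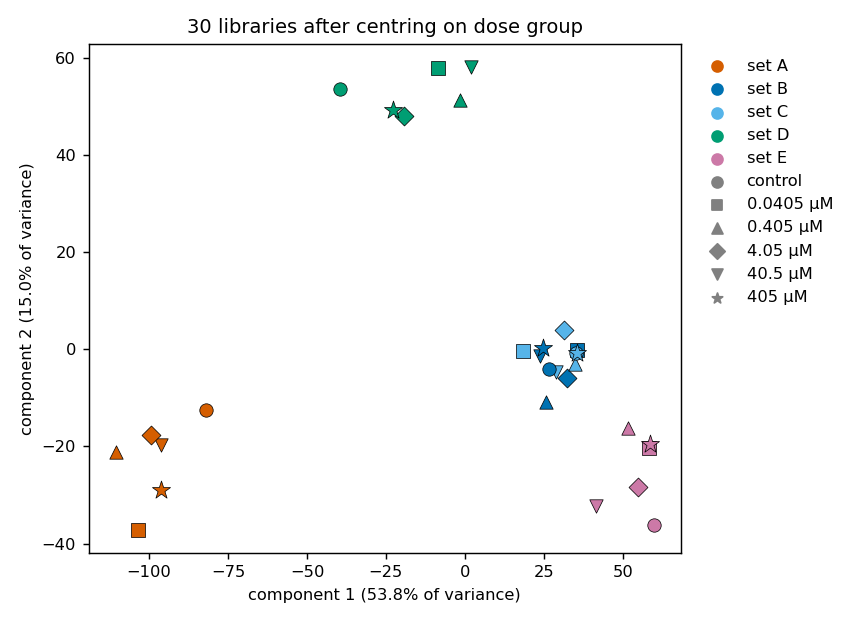
Principal components of log2 levels after each gene was centred on the mean of its dose group, with 1 point per library, coloured by set and shaped by dose. Component 1 holds 53.8% and component 2 15.0% of the variance; set A lies between -110.6 and -82 on component 1, set D is alone above 48 on component 2, and sets B and C overlap.

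Sets B and C were nearly alike, and set A was the farthest from the others. At adjusted p under 0.05 and a difference of at least 2-fold, only 19 genes differed between B and C, 0.097% of those tested. C and E differed in 548 genes (2.8%), B and E in 599 (3.06%), C and D in 1325 (6.77%), B and D in 1373 (7.01%) and D and E in 2294 (11.7%). Set A differed from D in 3685 genes (18.8%), from B in 4800 (24.5%), from C in 4904 (25%) and from E in 6349 (32.4%). These 10 comparisons come from 1 fit, and the 5 set means leave 4 independent contrasts.

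Differences between a set and the rest were counted in 3 ways. At adjusted p under 0.05 alone, 74.7% of genes differed in A, 34.4% in B, 35.4% in C, 49.3% in D and 60.3% in E. Set A had 37.5% of genes higher and 37.2% lower, B 18.9% and 15.5%, C 20.4% and 15%, D 25.5% and 23.8%, and E 31.6% and 28.7%. The 6 libraries of set A lay above all 24 others in 1878 genes (9.59%) and below them in 2166 (11.1%). Set E lay above in 599 (3.06%) and below in 1015 (5.18%), and set D above in 208 (1.06%) and below in 308 (1.57%). Set B lay above in 4 and below in 4 (0.0204% each), and set C above in 1 (0.00511%) and below in 0.

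Each set was next compared with the mean of the other 4 sets. The difference is given as log2 units of normalized count + 1, a scale that understates the difference of genes with low counts. Set A was at least 2-fold higher in 1047 genes (5.35%) and at least 2-fold lower in 3534 (18%). Set D had 43 genes higher (0.22%) and 986 lower (5.03%). Set E had 1044 genes higher (5.33%) and 396 lower (2.02%). Set B had 125 genes higher (0.638%) and 20 lower (0.102%), and set C 134 higher (0.684%) and 35 lower (0.179%). The median over all genes tested was 0.0075 in A, 0.0289 in B, 0.0339 in C, 0.0204 in D and 0.0438 in E. The split depends on the scaling: with quantile normalization it was 1499 higher and 2152 lower in A, 740 and 565 in E, 63 and 95 in B, and 37 and 104 in C. The balance of genes past 2-fold therefore turned with the scaling in sets B and C. It did not in A, D (93 higher and 733 lower) or E. By adjusted p alone, however, slightly more genes were higher than lower in A (37.5% and 37.2%) and in D (25.5% and 23.8%). Without the 2 set C libraries named above, the F test called 17028 genes, and 1069 genes were higher and 3508 lower in A, 125 and 18 in B, 149 and 34 in C, 45 and 1002 in D, and 1035 and 400 in E.

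Tissue lists were described by their members. Of 43 lists, 27 had their highest median in set E and 25 their lowest in set D, and 20 showed both. These counts are for the main scaling. Of the 215 medians of a list in a set, 31 changed sign under another scaling or pseudocount. With quantile normalization some lists were no longer highest in E. Antigen processing then had 0.44 in A and 0.21 in E, and bone genes 0.35 in A and 0.18 in E. The share of variance that went with the set was highest for liver genes (90.8%), followed by yolk and lipoprotein genes (89.9%), neuron genes (88.7%), intestine (83.9%), exocrine pancreas (82.3%) and matrix and cartilage (81.0%). The share was lowest for lymphocyte and thymus genes (39.8%), antigen processing (39.9%) and cone phototransduction (40.2%). Over all genes tested the share was 69.1%. The share does not measure the size of the differences, as it also depends on the dose share and the residual. For cone phototransduction 38.8% went with the dose and 21.0% with neither. For lymphocyte and thymus genes these values were 9.76% and 50.4%. The median range of set means was 3.52 log2 units for liver, 0.90 for neuron and 0.93 for cone phototransduction. It was 0.84 for lymphocyte and thymus, 1.00 for antigen processing and 0.87 for all genes.

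**Figure D2:**
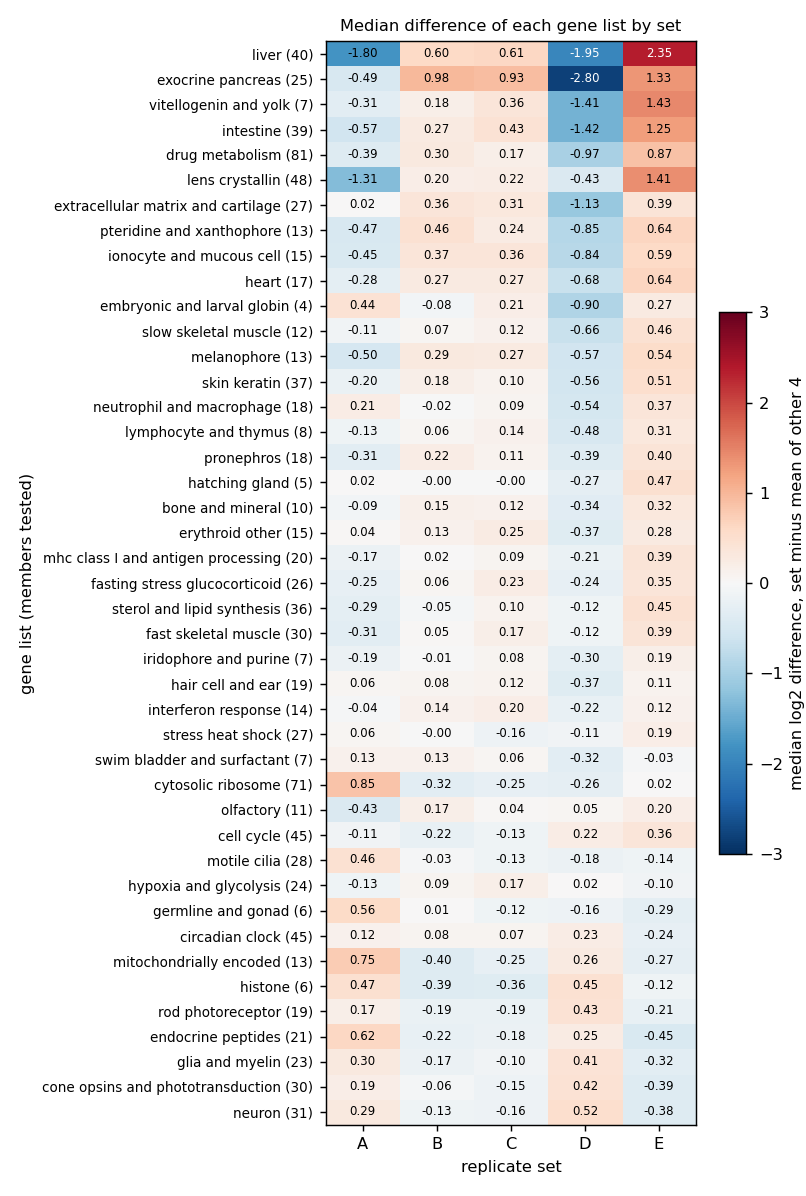
Median log2 difference of each gene list in 1 set from the mean of the other 4 sets, with the number of members tested in parentheses; red is higher and blue lower. Liver runs from -1.95 in set D to 2.35 in set E and exocrine pancreas from -2.80 in set D to 1.33 in set E, while cytosolic ribosome is highest in set A at 0.85.

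Liver transcripts separated set E from the rest. The liver list holds secreted plasma proteins and enzymes of hepatocytes, and 40 of its 42 genes were tested, all 40 of which passed the F test. Its summed normalized count was 101486 to 141640.0 (median 118798) in set E, 43586 to 63663 (median 57805) in set B, 41293 to 64820.1 (median 57593) in set C, 21816 to 29741 (median 25248) in set A and 18213 to 27849 (median 20852) in set D. All 6 libraries of set E lay above the 24 others, and sets A and D, which overlap, lay below B, C and E. In set E 34 of 40 liver genes were at least 2-fold higher (median 2.35), in set A 30 of 40 were lower (median -1.80), and in set D 34 of 40 were lower (median -1.95). Of all genes, 5.33%, 18% and 5.03% did so.

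FGG, a chain of fibrinogen and so of the blood clot, had 443 to 618 (median 546) in set E and 5.91 to 214 in the other 24 libraries, and its difference was 3.16 ± 0.28 (SE), adjusted p = 1.88e-10. ITIH2, a plasma protein that links hyaluronan, had 451 to 706 (median 612) in set E and 18.9 to 259 in the other 24 libraries (2.97 ± 0.20 (SE), adjusted p = 2.37e-12). The related gene itih3b.1 had 304 to 499 (median 383) in set E and 7.09 to 172 in the other 24 libraries (2.90 ± 0.22 (SE), adjusted p = 1.02e-11). All 6 set E libraries lay above the 24 others for each of these plasma proteins. The complement regulator cfh had 199 to 304 (median 233) in set E and 3.54 to 71.3 in the other 24 libraries (3.28 ± 0.24 (SE), adjusted p = 5.17e-12). Urate oxidase, uox, which breaks down uric acid, had 406 to 634 (median 549.8) in set E and 18.9 to 295 in the other 24 libraries (2.90 ± 0.13 (SE), adjusted p = 2.64e-15). The level of uox was also above the mean of the others in another set, at 146 to 295 (median 242) in set B, with a difference of 1.27 ± 0.13 (SE), adjusted p = 4.50e-07. Set E again stood above all other libraries for cfh and uox, while set B overlapped with set C for uox. APOB, the structural protein of very-low-density lipoprotein, had 387 to 692 (median 519.9) in set E and 11.8 to 346 in the other 24 libraries (2.80 ± 0.21 (SE), adjusted p = 1.53e-11). ABCB11, the bile salt export pump of the hepatocyte, differed between most sets. It had 7.09 to 32.4 (median 11.99) in set A, 25.8 to 64.6 (median 38.0) in set D, 124 to 192 (median 150.3) in set C, 113 to 208 (median 167) in set B and 359.7 to 531 (median 456) in set E. Its difference was -3.34 ± 0.19 (SE), adjusted p = 6.11e-15 in set A and 2.88 ± 0.19 (SE), adjusted p = 7.52e-13 in set E, and it was below the other sets in A except for overlap with D.

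Drug metabolism and lipoprotein genes were also higher in set E. Of the 81 drug metabolism genes tested, of 93 listed, 34 were at least 2-fold higher in set E (median 0.87) and 36 at least 2-fold lower in set D (median -0.97), against 5.33% and 5.03% of all genes. The sulfotransferase gene sult1st2 had 72.7 to 138 (median 105) in set E and 3.58 to 54.1 in the other 24 libraries (2.60 ± 0.23 (SE), adjusted p = 2.40e-10). Only 7 of the 15 listed yolk and lipoprotein genes reached the level minimum and were tested. Of these 7, 5 were at least 2-fold higher in set E and 5 at least 2-fold lower in set D (5.33% and 5.03% of all genes). The high-density lipoprotein gene apoa1b had 29996 to 51847 (median 38454) in set E and 1792 to 18923 in the other 24 libraries (2.51 ± 0.18 (SE), adjusted p = 3.57e-12). In other lists of metabolism, 8 of 36 sterol and lipid synthesis genes were at least 2-fold higher and 2 lower in set E, 4 of 26 fasting and glucocorticoid genes were higher, and 3 of 24 hypoxia and glycolysis genes were higher with a list median of -0.10 (all genes: 5.33% higher, 2.02% lower). Of these lists, g6pc1a.1, which releases glucose from glucose-6-phosphate, had 88.7 to 126 (median 113) in set E and 12.1 to 67.9 in the other 24 libraries (1.94 ± 0.13 (SE), adjusted p = 2.51e-12). CYP51A1, a sterol demethylase of cholesterol synthesis, had 313 to 752 (median 512) in set E and 59.8 to 252 in the other 24 libraries (1.85 ± 0.12 (SE), adjusted p = 4.49e-13). Set E lay above all other libraries for each of sult1st2, apoa1b, g6pc1a.1 and CYP51A1.

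Digestive transcripts separated set D from the rest. Of the 25 exocrine pancreas genes tested, of 29 listed, 24 of 25 were at least 2-fold lower in set D (5.03% of all genes), with a median of -2.80. The summed level of the list in set D was 4193 in the control pool and 2590, 1949, 3582, 1365 and 7913 from the lowest to the highest dose. At each of the 6 doses the set D pool was the lowest, and no set D library reached the lowest library of the other sets, 8531 in the set A control. The gene ctrb.1, which encodes a chymotrypsinogen, had 79.3 to 375 (median 112) in set D and 450.5 to 4049.9 in the other 24 libraries (-3.60 ± 0.21 (SE), adjusted p = 4.18e-13). CEL ENSDARG00000017490, the bile salt-activated lipase, had 21.5 to 132 (median 38.9) in set D and 151 to 943 in the other 24 libraries (-3.34 ± 0.18 (SE), adjusted p = 1.02e-13). Set D lay below all 24 other libraries for both enzymes. The insulin gene ins, of the endocrine pancreas, had 0 to 2.53 (median 1.35) in set D, 1.29 to 3.73 (median 3.07) in set A, 5.303 to 12.2 (median 7.03) in set C, 5.27 to 12.6 (median 9.11) in set B and 9.53 to 22.1 (median 13.96) in set E, and at these low levels the sets overlapped (-1.90 ± 0.23 (SE), adjusted p = 1.11e-07 for D). Only in set E was the median of ins above the level minimum of 10 normalized counts, and its values in D are single reads. The lipocalin gene APOD ENSDARG00000060350 had 22.4 to 248 (median 79.5) in set D and 282 to 1793 in the other 24 libraries (-3.40 ± 0.22 (SE), adjusted p = 1.37e-12), and the provisional gene si:dkey-14d8.6 had 42.5 to 139 (median 53.5) in set D and 247 to 1806 in the other 24 libraries (-3.45 ± 0.16 (SE), adjusted p = 6.42e-15), both also below all other libraries.

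The intestine list, of brush border enzymes, transporters and lipoproteins, had 39 of 42 genes tested. Its sum was 12968 to 16126 (median 14667) in set D, 20480.4 to 28481 (median 21906) in set A, 31301 to 36598 (median 33032) in set B, 24800.5 to 43179.9 (median 36798) in set C and 47693 to 66526 (median 57170.5) in set E. Set D lay below and set E above all other libraries, at all 6 doses. In set D 32 of 39 members were at least 2-fold lower (5.03% of all genes), and in set E 23 of 39 at least 2-fold higher (5.33%). The lipid carrier gene apoa4b.2 had 362 to 654 (median 462) in set D (-1.88 ± 0.12 (SE), adjusted p = 9.78e-13) and 2789.5 to 4588 (median 3749) in set E (1.83 ± 0.12 (SE), adjusted p = 6.15e-13). The peptide transporter gene SLC15A1 ENSDARG00000100315 had 37.0 to 60.9 (median 44.3) in set D (-1.87 ± 0.15 (SE), adjusted p = 8.20e-11) and 283 to 436 (median 361) in set E (1.80 ± 0.15 (SE), adjusted p = 7.30e-11). Set D had apoa4b.2 below every other library, and for SLC15A1 it overlapped with set A by the highest of its 6 libraries.

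**Figure D3:**
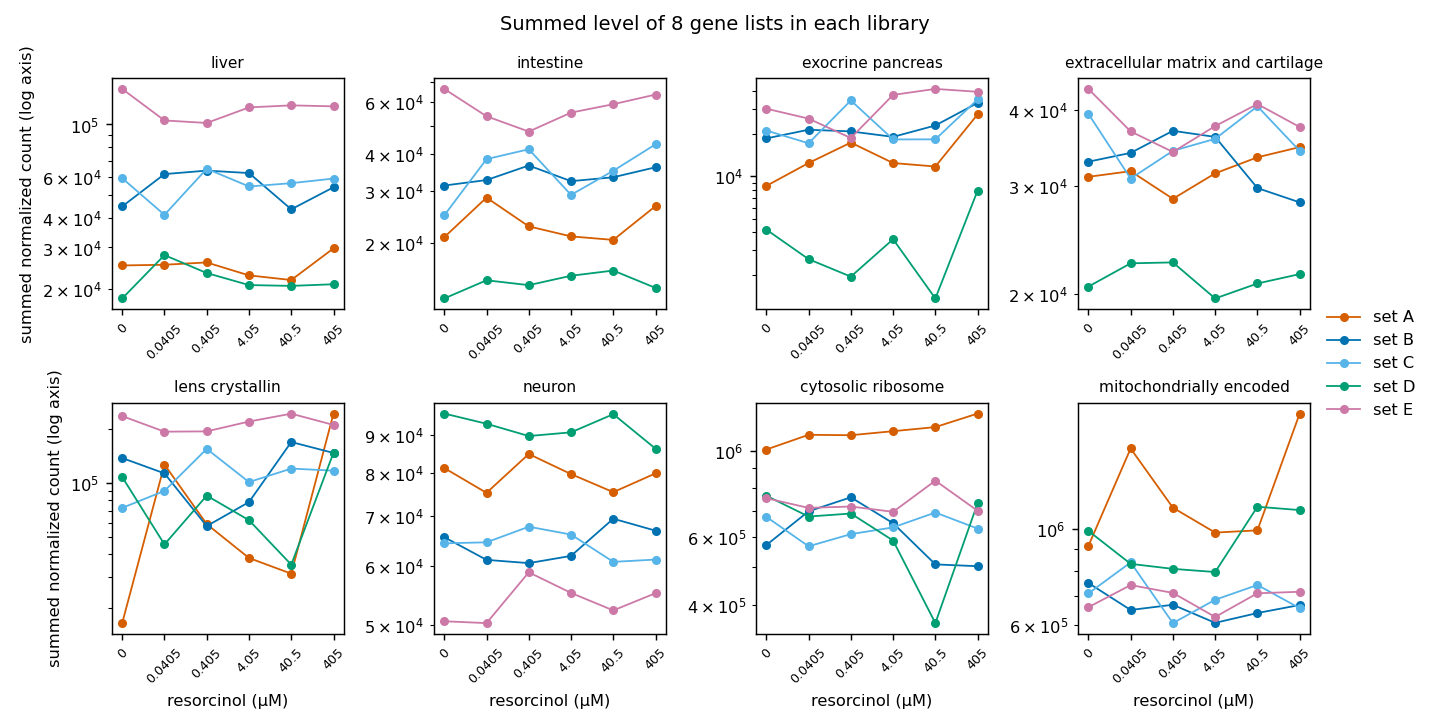
Summed normalized count of 8 gene lists in every library, on a log axis, against resorcinol dose, with 1 line per set. Set E is the highest line for liver and intestine and set D the lowest for intestine and exocrine pancreas at all 6 doses, and cytosolic ribosome is highest in set A at all 6 doses.

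Many cartilage and heart genes were lower in set D as well. Of the 27 matrix and cartilage genes tested, 15 were at least 2-fold lower in set D (5.03% of all genes, list median -1.13), and the sum of 19639.6 to 22508 (median 21159) in set D lay below all other libraries. The cartilage matrix gene MATN1 had 77.0 to 144 (median 103) in set D and 246 to 742 in the other 24 libraries (-1.93 ± 0.09 (SE), adjusted p = 8.20e-15), with no overlap. COL2A1 ENSDARG00000069093, the fibrillar collagen of cartilage, had 106 to 377 (median 219) in set D and 245 to 1479 in the other 24 libraries (-1.90 ± 0.21 (SE), adjusted p = 2.07e-08), and here D overlapped with A. Of 17 heart genes, 7 were at least 2-fold lower in D and 6 at least 2-fold higher in E (5.03% and 5.33% of all genes). MYL7, the regulatory light chain of heart muscle myosin, had 3.58 to 20.7 (median 8.80) in set D, 10.22 to 64.7 (median 26.5) in set A, 39.2 to 102 (median 69.4) in set C, 67.0 to 107 (median 88.0) in set B and 168 to 271 (median 194) in set E. Its difference was -2.90 ± 0.21 (SE), adjusted p = 9.71e-12 in D and 2.54 ± 0.21 (SE), adjusted p = 4.84e-11 in E, and E stood above all other libraries. The globin gene hbae3 had 121 to 316 (median 254) in set D and 214 to 659 in the other 24 libraries (-0.91 ± 0.16 (SE), adjusted p = 3.82e-05), so its sets overlapped. Of 30 fast skeletal muscle genes, 6 were at least 2-fold lower in A (18% of all genes), 1 lower in D (5.03%) and 2 higher in E (5.33%), shares close to those of all genes, and the heavy chain gene myhz1.1 did not pass the F test (adjusted p = 0.741), its set means ranging over 0.17 log2 units.

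Lens crystallins, the refractive proteins of the lens fibre, were high in set E and spread widely in set A. Of 61 listed genes 48 were tested, and 45 were at least 2-fold higher in set E (median 1.41) while 29 were at least 2-fold lower in set A (median -1.31), against 5.33% and 18% of all genes. The summed level in set A was 16575 in the control pool and 126858, 59036, 38229, 31264 and 244089 from the lowest to the highest dose. Set A thus held both the lowest and the highest pool of all 30, whereas set E kept within 193457 to 243675. The set took 56.1% of the variance of the lens list, less than the 69.1% of all genes, and 34.1% was residual. The gamma-crystallin gene crygm2d9 had 2.49 to 267 (median 30.8) in set A and 55.4 to 709 in the other 24 libraries (-3.12 ± 0.46 (SE), adjusted p = 8.83e-07), and crybgx had 971 to 1937 (median 1528) in set E and 16.2 to 1271 in the other 24 libraries (2.73 ± 0.49 (SE), adjusted p = 2.92e-05), both with overlap.

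Of 13 melanophore genes tested, 8 were lower in set A and 10 in set D at adjusted p under 0.05 (37.2% and 23.8% of all genes). TYR, the tyrosinase that starts melanin synthesis, had 4.16 to 17.9 (median 6.76) in set D, 2.49 to 12.01 (median 7.95) in set A, 57.9 to 77.9 (median 62.9) in set B, 41.4 to 78.2 (median 65.1) in set C and 82.2 to 116 (median 103) in set E. A and D overlapped with each other and with no other set, and E lay above all (2.19 ± 0.21 (SE), adjusted p = 1.11e-09). DCT, a later enzyme of melanin synthesis, had 102 to 180.3 (median 132) in set A and 165 to 636 in the other 24 libraries (-1.60 ± 0.11 (SE), adjusted p = 7.29e-13), with overlap. At least 2-fold, 4 melanophore genes were lower in A (18% of all genes) and 1 in D (5.03%), and 2 were higher (5.33%) and 1 lower (2.02%) in E. XDH, xanthine dehydrogenase, which acts in purine and pteridine metabolism, had 218 to 338 (median 305) in set E and 28.6 to 166 in the other 24 libraries (1.92 ± 0.13 (SE), adjusted p = 2.69e-12), with no overlap.

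Neuron, rod and cone transcripts were higher in set D, while lens crystallins were not (6 of 48 at least 2-fold lower and 0 higher, median -0.43, against 5.03% lower and 0.22% higher of all genes). The neuron list of 32 genes, 31 tested, summed to 86186 to 96080.3 (median 91882) in set D, 75208 to 84796 (median 79783) in set A, 60769 to 67736 (median 64448) in set C, 60530.1 to 69432 (median 63743) in set B and 50295 to 58839 (median 53737) in set E. Set D lay above and set E below all other libraries. At adjusted p under 0.05 with no fold minimum, 26 of the 31 were higher in D (all genes: 25.5% higher, 23.8% lower) and 21 lower in E (all genes: 28.7% lower, 31.6% higher), with medians of 0.52 and -0.38 (0.53 and -0.22 with quantile normalization), and none passed 2-fold in either set. The glycolytic enzyme of neurons, eno2, had 2562 to 3649.9 (median 2771) in set D and 819.9 to 1841 in the other 24 libraries (0.94 ± 0.08 (SE), adjusted p = 1.63e-10). TAL2, a transcription factor of midbrain neurons, had 136 to 269 (median 185) in set D and 30.4 to 115 in the other 24 libraries (1.22 ± 0.13 (SE), adjusted p = 2.47e-08). The recoverin gene RCVRN ENSDARG00000019902, whose product senses calcium in photoreceptors, had 932 to 1587 (median 1146) in set D and 156 to 903 in the other 24 libraries (1.09 ± 0.11 (SE), adjusted p = 3.06e-09). These 3 genes were above all other libraries in set D. Its relative rcvrna had 258 to 645 (median 347) in set D and 56.2 to 292 in the other 24 libraries (1.03 ± 0.11 (SE), adjusted p = 2.47e-08), and the growth cone gene basp1 had 168 to 521 (median 323) in set D and 12.8 to 301 in the other 24 libraries (1.14 ± 0.16 (SE), adjusted p = 1.24e-06); both overlapped. Of 19 rod genes 17 and of 30 cone genes 20 were higher in D at adjusted p under 0.05 (25.5% of all genes), with medians of 0.43 and 0.42. The growth hormone gene gh1 of the pituitary went the other way, with 0 to 2.77 (median 0.879) in set D and 2.12 to 22.7 in the other 24 libraries (-2.49 ± 0.35 (SE), adjusted p = 1.22e-06), near the level of single reads in D.

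Among the 4 genes furthest below the other sets in E were 2 synaptic genes and a pineal opsin. The opsin gene parapinopsinb had 50.5 to 82.3 (median 52.4) in set E, 591 to 1231 (median 782) in set A and 128 to 296 in sets B, C and D together. It was below all others in E (-2.11 ± 0.13 (SE), adjusted p = 6.22e-13) and above all others in A (2.59 ± 0.13 (SE), adjusted p = 1.84e-15). The AMPA receptor subunit gene gria4a had 294 to 393 (median 324) in set E (-1.57 ± 0.09 (SE), adjusted p = 6.58e-14) and 2031 to 3259 (median 2345) in set A (2.07 ± 0.09 (SE), adjusted p = 4.77e-17). The synaptic GTPase regulator gene syngap1b had 349.6 to 499 (median 456) in set E and 786 to 2819.8 in the other 24 libraries (-1.66 ± 0.07 (SE), adjusted p = 1.81e-15). For all 3 genes E and A marked the opposite ends. The LC3-like autophagy gene map1lc3cl had 28.6 to 111 (median 48.1) in set E (-1.58 ± 0.32 (SE), adjusted p = 1.17e-04), overlapping with D.

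Several of the genes furthest below the other sets in A act in neurons, although neuron genes as a list were not lower there. GPM6B ENSDARG00000005739, a membrane glycoprotein of neurons and glia, had 7.66 to 28.3 (median 23.2) in set A and 129.7 to 285 in the other 24 libraries, with a difference of -3.56 ± 0.16 (SE), adjusted p = 7.92e-17. RAB3A ENSDARG00000043835, a GTPase of synaptic vesicles, had 7.09 to 16.2 (median 9.51) in set A and 63.2 to 187 in the other 24 libraries (-3.55 ± 0.15 (SE), adjusted p = 4.26e-17). PCSK1, a protease that matures peptide hormones, had 15.5 to 31.1 (median 21.4) in set A and 168 to 308 in the other 24 libraries (-3.41 ± 0.11 (SE), adjusted p = 1.59e-18). For each of them the 6 set A libraries were below all 24 others. The vesicular glutamate transporter gene SLC17A6 ENSDARG00000001127 had 10.22 to 27.4 (median 15.8) in set A and 58.4 to 223 in the other 24 libraries (-3.18 ± 0.18 (SE), adjusted p = 6.48e-15). The vesicle protein genes syn1 and vamp2 also did not overlap: syn1 had 10.3 to 16.7 (median 12.9) in set A and 81.7 to 159.6 in the other 24 libraries (-3.13 ± 0.11 (SE), adjusted p = 3.04e-18). The level of vamp2 was 93.2 to 208 (median 146) in set A and 539 to 1072 in the other 24 libraries (-2.53 ± 0.10 (SE), adjusted p = 1.53e-17). ELAVL3, an RNA-binding protein of neurons, had 1193 to 2495 (median 1796) in set A and 2907 to 8049 in the other 24 libraries (-1.31 ± 0.10 (SE), adjusted p = 3.42e-12).

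The list itself was mixed in set A. Of 31 neuron genes, 5 were at least 2-fold lower in set A (18% of all genes), while 16 were higher and 9 lower at adjusted p under 0.05 (37.5% and 37.2% of all genes), and the median was 0.29, or 0.05 with quantile normalization. Duplicated genes that share a symbol, picked after their values were seen, differed among themselves in set A. The second GPM6B, GPM6B ENSDARG00000001676, was also lower (-2.28 ± 0.09 (SE), adjusted p = 1.20e-17), with a mean of 99.7 in set A and 427 in set B. The second RAB3A, RAB3A ENSDARG00000056347, was lower by less (-1.76 ± 0.11 (SE), adjusted p = 4.65e-14). The second SLC17A6, SLC17A6 ENSDARG00000041150, differed little (-0.12 ± 0.05 (SE), adjusted p = 0.0463), with a mean of 1438 in set A and 1552 in set B. Both SNAP25 genes, which encode a synaptic membrane fusion protein, were higher in A: SNAP25 ENSDARG00000020609 at 0.44 ± 0.05 (SE), adjusted p = 5.12e-09 and SNAP25 ENSDARG00000058117 at 0.97 ± 0.08 (SE), adjusted p = 5.99e-12. Whether the counting divided reads between similar copies was not tested.

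Of 45 clock genes tested, 12 were at least 2-fold lower in set A (18% of all genes) and 2 higher (5.35%), with a median of 0.12 that turns to -0.07 under quantile normalization. CLOCK ENSDARG00000003631, a core activator of the circadian clock, had 39.6 to 75.9 (median 49.3) in set A and 147 to 294 in the other 24 libraries (-2.11 ± 0.11 (SE), adjusted p = 1.14e-15). The nuclear receptor gene RORB had 2.58 to 16.2 (median 9.77) in set A and 41.4 to 117 in the other 24 libraries (-2.99 ± 0.20 (SE), adjusted p = 4.11e-13). Both lay below all other libraries. The summed clock list was lowest in set E at all 6 doses, at 39040.2 to 44212 (median 41445) in set E against 49701 to 62119 in the other sets.

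**Figure D4:**
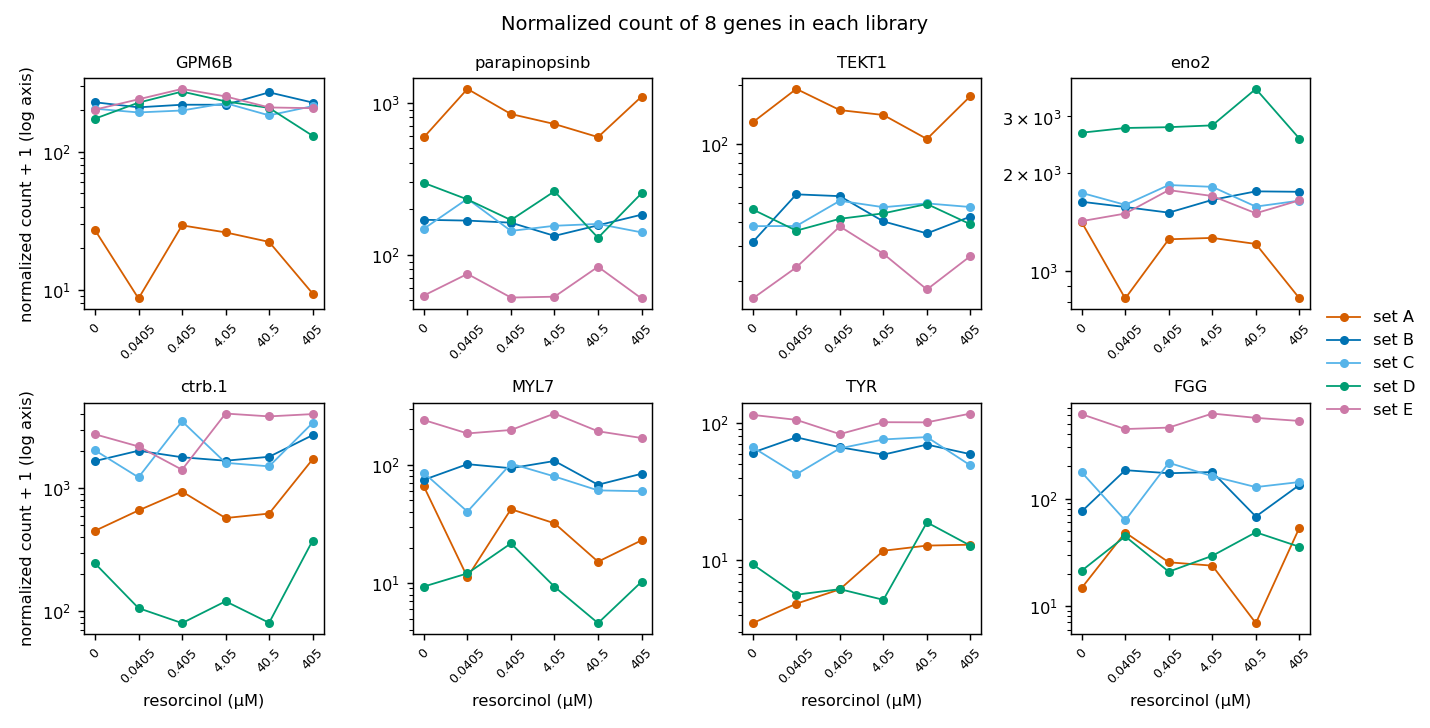
Normalized count + 1 of 8 genes in every library, on a log axis, against resorcinol dose, with 1 line per set. GPM6B (ENSDARG00000005739) is lowest in set A at all doses, parapinopsinb and TEKT1 are highest there, eno2 is highest and ctrb.1 lowest in set D, and FGG and TYR are highest in set E.

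Transcripts of the translation machinery and of mitochondria were higher in set A, as were some of motile cilia. All 71 tested cytosolic ribosome genes, of 72 listed, were higher in A at adjusted p under 0.05 (37.5% of all genes), 19 of them at least 2-fold (5.35%), with a median of 0.85 that was 0.42 with quantile normalization. Ribosomal transcripts took 9.81 to 11.1% of the reads in set A and 4.18 to 8.65% in the other sets. The ribosomal stalk gene rplp2 had 9038 to 13946 (median 9576) in set A and 1295 to 4819 in the other 24 libraries (1.51 ± 0.17 (SE), adjusted p = 8.57e-09). All 13 mitochondrially encoded genes were higher in A too, 2 of them at least 2-fold (5.35% of all genes), with a median of 0.75 that was 0.39 with quantile normalization. This was not particular to A, as the list median was also positive in set D (0.26). Mitochondrial transcripts took 9.27 to 15.1% of the reads in set A and 9.05 to 13.1% in set D. Their sum was higher in D than in A in the control pools (990284 and 913489) and at 40.5 µM (1126240 and 992893). MT-ND3, a subunit of respiratory complex I, had 7928 to 18467 (median 10129) in set A and 3638 to 9624 in the other 24 libraries (1.03 ± 0.12 (SE), adjusted p = 8.94e-09), so its groups overlapped. Set A libraries held 17232 to 17381 genes with at least 10 normalized counts, set D 17392 to 17999 and sets B, C and E 18255 to 18660. The part of these differences in make-up in the results of set A was not tested.

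Of 28 motile cilia genes tested, 4 were at least 2-fold higher and none lower in A (5.35% and 18% of all genes). The F test was passed by 20 of the 28 (71.4%), against 88.3% of all genes. The list median in A was 0.46, or 0.70 with quantile normalization, and the summed list lay above all others there and below all others in set E. CFAP45, a protein of ciliary microtubules, had 771 to 1716 (median 993) in set A and 137 to 309 in the other 24 libraries (2.27 ± 0.11 (SE), adjusted p = 5.27e-16). TEKT1, a tektin of ciliary microtubule doublets, had 105 to 190.3 (median 144) in set A and 15.2 to 54.3 in the other 24 libraries (1.97 ± 0.13 (SE), adjusted p = 1.12e-13). ABCA3, which loads lipids into lamellar bodies of surfactant-making cells, had 6606 to 7889 (median 7439.7) in set A and 1580.5 to 3460.2 in the other 24 libraries (1.59 ± 0.08 (SE), adjusted p = 5.08e-16). The swim bladder and surfactant list to which ABCA3 belongs, with 7 genes tested, had a median of only 0.13 in set A. The netrin gene NTN4 had 332 to 493 (median 393) in set A and 36.3 to 119.8 in the other 24 libraries (2.35 ± 0.11 (SE), adjusted p = 2.20e-16). None of these 4 genes overlapped with another set in A.

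Many genes outside the tissue lists also differed between the sets, and some of them are given here. The ribosomal protein-like gene rps11l had 245 to 385 (median 335) in set A, 117 to 206 (median 151) in set E, 46.4 to 170.1 (median 89.3) in set B, 1.79 to 58.6 (median 31.3) in set D and 9.94 to 27.5 (median 13.95) in set C. A stood above all others (2.87 ± 0.36 (SE), adjusted p = 4.34e-08), and C was low (-2.56 ± 0.36 (SE), adjusted p = 1.32e-05). The 7SL RNA gene rn7sl1, the RNA of the signal recognition particle, had 128 to 484 (median 217) in set A, 35.7 to 624 (median 89.6) in set D, 40.2 to 817 (median 65.5) in set E, 8.85 to 38.9 (median 24.1) in set B and 4.24 to 44.7 (median 21.4) in set C. Single libraries of D and E exceeded all of set A, so the sets overlapped (2.38 ± 0.46 (SE), adjusted p = 4.35e-05 for A). The libraries were made with a stranded mRNA kit. The provisional gene si:ch1073-425j19.2 was the one gene under 3 normalized counts in all 6 libraries of a set and at least 30 in all 6 of another. It had 33.6 to 551 (median 148) in set A and 0.831 to 10.8 (median 3.31) in set D, against 0 to 0.905 (median 0.442) in set B, 0 to 2.85 (median 0.382) in set C and 0 to 1.19 (median 0) in set E.

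Sets B and C differed from the mean of the other sets by at least 2-fold in few genes, though 34.4% and 35.4% of genes passed the adjusted p alone. The notochord sheath gene cmn (calymmin) had 414 to 866 (median 557) in set B, 329.7 to 468 (median 425) in set C, 59.7 to 441 (median 204) in set A, 69.1 to 286 (median 107) in set E and 4.31 to 147 (median 69.1) in set D. Its difference was 2.03 ± 0.41 (SE), adjusted p = 5.31e-04 in B and 1.43 ± 0.41 (SE), adjusted p = 0.0081 in C. The matrilin gene MATN3 ENSDARG00000069245 had 791 to 1295 (median 894) in set B and 31.0 to 1573 in the other 24 libraries (1.43 ± 0.38 (SE), adjusted p = 0.00476), with overlap. The autophagy gene map1lc3cl had 208 to 368 (median 238) in set B (1.24 ± 0.32 (SE), adjusted p = 0.00397). Lower in B were TXNDC15, a thioredoxin domain gene (-0.99 ± 0.25 (SE), adjusted p = 0.00381), tnfrsf14, a receptor of the tumour necrosis factor family (-0.91 ± 0.20 (SE), adjusted p = 0.00103), and MCM7, a subunit of the replicative helicase (-0.86 ± 0.20 (SE), adjusted p = 0.00187). Their levels in that set were 28.3 to 123 (median 71.1) for TXNDC15, 66.0 to 197 (median 93.1) for tnfrsf14 and 90.3 to 258 (median 175) for MCM7, all overlapping with other sets. Without set A, tnfrsf14 in B no longer passed (difference -0.58, adjusted p = 0.0846).

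One gene of ribonucleotide reductase, the enzyme that makes DNA precursors, was close to 0 in set B. RRM2 ENSDARG00000020711 had 0 to 4.59 (median 0.446) in set B, 0 to 28.7 (median 6.89) in set A, 5.96 to 28.8 (median 9.90) in set E, 19.1 to 71.9 (median 34.3) in set C and 38.7 to 70.16 (median 57.3) in set D (-3.62 ± 0.37 (SE), adjusted p = 4.50e-07 for B). The copy RRM2 ENSDARG00000078069 was highest in A (0.82 ± 0.08 (SE), adjusted p = 3.68e-10) and lowest in C (-0.84 ± 0.08 (SE), adjusted p = 1.34e-07), with 129.5 to 199.97 (median 164) in set B. In set C the immediate early genes FOS and egr4, which cells switch on within minutes of a stimulus, were low. FOS had 47.6 to 130.01 (median 57.4) in set C, 70.7 to 301 (median 105) in set D, 61.5 to 187 (median 109) in set B, 81.0 to 564 (median 436) in set E and 292 to 676 (median 439) in set A (-1.56 ± 0.31 (SE), adjusted p = 4.23e-04 for C and 1.86 ± 0.31 (SE), adjusted p = 4.29e-06 for A). The level of egr4 was 59.4 to 133 (median 83.0) in set C and 298 to 820.2 (median 441) in set A (-1.25 ± 0.27 (SE), adjusted p = 0.00102 for C). Among the higher genes of set C were APOB, at 125 to 346 (median 248) in set C (1.303 ± 0.21 (SE), adjusted p = 7.43e-05), and ctrb.1, at 1227 to 3505 (median 1822) in set C (1.23 ± 0.21 (SE), adjusted p = 1.32e-04). Without set D, ctrb.1 in C no longer passed (difference 0.36, adjusted p = 0.16).

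Some transcripts did not differ detectably between the sets. The F test was not passed by 3 of 8 lymphocyte and thymus genes, 6 of 20 antigen processing genes, 3 of 10 bone genes and 8 of 28 motile cilia genes, where 88.3% of all genes passed. Among genes with a mean of over 1000 normalized counts, those with a small range of set means, picked after their values were seen, included RNF10, an E3 ubiquitin ligase, with means of 2665, 2699, 2671, 2782 and 2704 in sets A to E. CS, the citrate synthase of mitochondria, had means of 2695, 2491, 2486, 2631 and 2629. Their F tests gave adjusted p = 0.838 and 0.179, which does not show that the sets were equal.

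Dose was tested over the same 30 libraries. A limma F test over the 6 dose groups called 8 genes (0.0409%) without the replicate block and 44 (0.225%) with it, all 8 among the 44. Of the 44, 36 also passed the F test over sets, against 88.3% of all genes. When the set C libraries at 40.5 and 4.05 µM were left out, an alternative chosen after seeing the data, the counts were 14 and 86. For opn1mw2, 75.6% of the variance went with the dose and 3.63% with the set, and the set F test was not passed (adjusted p = 0.355). Its control pools held 689, 634, 521, 1303 and 603 normalized counts in sets A to E and its 405 µM pools 76.0, 84.9, 63.5, 135 and 85.5. In every set the treated pool was lower, with log2 differences of -3.16, -2.89, -3.02, -3.26 and -2.80. The calcium sensor gene GUCA1A ENSDARG00000100747 of photoreceptors likewise had 77.5% of its variance with dose and 3.69% with set, and nfil3-6, a basic leucine zipper factor, 68.7% and 7.01%.

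Other genes passed the dose test with the block and not without it. The retinal homeobox gene rx1 had 68.0% of its variance with the set and 22.3% with the dose, and its dose test gave an adjusted p of 0.999999 without and 0.00469 with the block in limma. The phosphodiesterase gene pde5aa had 76.3% with the set and 15.2% with the dose (adjusted p = 0.999999 without and 0.0277 with the block). For HMOX1, the heme oxygenase of the oxidative stress response, 30.4% went with the set and 57.2% with the dose, and the adjusted p was 0.447 without and 0.000274 with the block. The 405 µM pool exceeded its control in each set, with log2 differences of 1.51, 1.39, 1.36, 1.76 and 1.499.

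**Figure D5:**
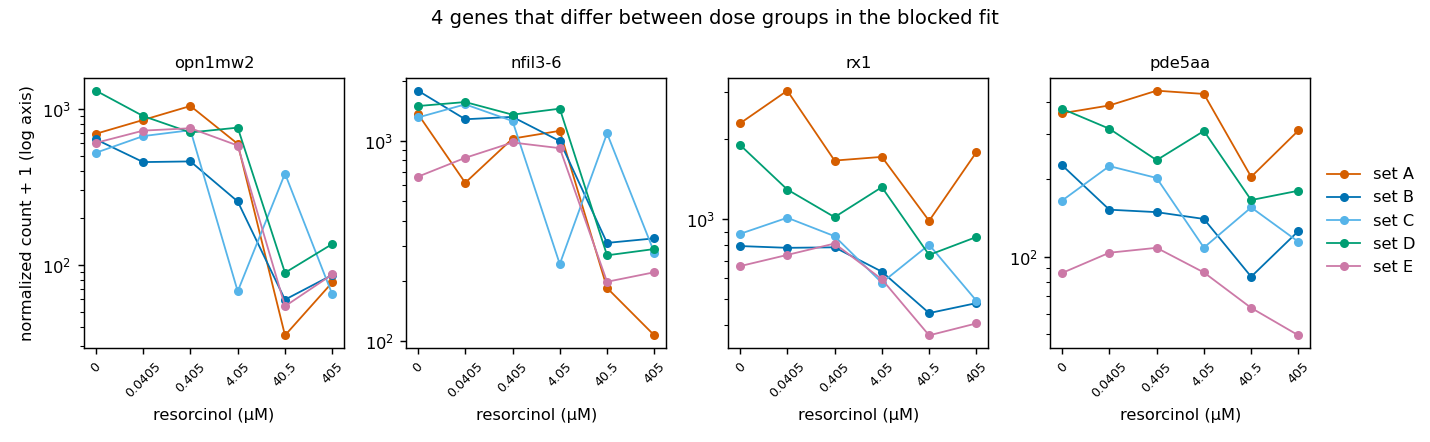
Normalized count + 1 of 4 genes in every library, on a log axis, against resorcinol dose, with 1 line per set. The lines of opn1mw2 and nfil3-6 lie close and fall at 40.5 µM except in set C, whose 4.05 µM library is the low one; those of rx1 and pde5aa lie apart by set.

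The raloxifene experiment, whose 30 libraries were normalized separately and share none with the resorcinol libraries, carries the same 5 letters. Its control pools had no raloxifene, and its dosed pools received 20.1, 2.01, 0.201, 0.0201 or 0.00201 µM. All its pools are listed with a lower carrier percentage than the 1% of the resorcinol pools. Compound, doses and carrier percentage thus differ between the experiments. The raloxifene sets were compared in the same way. There the F test called 17772 of 19241 genes (92.4%), and the set took 77.2% of the variance. Over the 19058 genes tested in both tables, the difference of resorcinol set A from its other sets correlated at 0.90 with that of raloxifene set A and at 0.79 with that of raloxifene set B. Resorcinol set E correlated with raloxifene set D at 0.82, and sets C and B did so with raloxifene set D at 0.75 and 0.67, so that match was not particular to E. Resorcinol set D correlated with raloxifene sets E and C at 0.68 and 0.64. For equal letters the value was 0.90 in A, -0.43 in B, 0.32 in C, -0.34 in D and -0.05 in E. These are correlations across genes, which are not independent, and the differences within a table are tied to each other. Of the genes whose set means ranged over at least 4-fold, 1756 did so in both tables, 91.5% of the 1919 in resorcinol and 47.6% of the 3686 in raloxifene. Over all 19058 genes tested in both tables, 10.1% ranged that far in resorcinol and 19.3% in raloxifene.

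The levels of 3 genes were set side by side, although the experiments differ in compound, doses and carrier percentage and were normalized separately. These 3 genes are among those named above and do not stand for all genes. In the raloxifene sets A to E, GPM6B ENSDARG00000005739 had 2.83 to 9.10 (median 4.77), 7.005 to 15.6 (median 10.6), 126 to 246 (median 168), 189 to 238 (median 207) and 62.9 to 210.1 (median 179). FGG had 22.2 to 55.3 (median 36.8), 9.96 to 26.0 (median 22.5), 10.5 to 24.3 (median 13.5), 443 to 600.0 (median 541) and 3.56 to 20.8 (median 12.4). MYL7 had 14.04 to 60.8 (median 38.0), 10.8 to 27.0 (median 20.3), 3.03 to 6.31 (median 4.60), 164 to 306 (median 218) and 3.05 to 8.24 (median 3.67). Raloxifene sets A and B were thus low in GPM6B like resorcinol set A, raloxifene set D was high in FGG and MYL7 like resorcinol set E, and raloxifene sets C and E were low in MYL7 like resorcinol set D. The lens list had medians of -2.63, -1.67, 0.81, 3.09 and 0.58 in raloxifene sets A to E, the liver list -0.08, -0.92, -1.33, 4.05 and -1.48, and the pancreas list 1.25, 0.20, -1.72, 2.67 and -2.22. Resorcinol set A and raloxifene set A both had a negative lens median (-1.31 and -2.63), while their pancreas medians were -0.49 and 1.25. Their liver medians also differed, at -1.80 and -0.08.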

How the data were processed

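RNA of 60 pools of 20 larvae was sequenced from stranded mRNA libraries, per the labels' protocols, and the 30 resorcinol libraries are reported here. Reads were processed with cutadapt, STAR and DESeq2 on GRCz11, per the submitters' processing notes; the sources used here do not name the counter, the annotation, the strand setting or the versions. The deposited values are a count signal per gene, which the authors divided by 1 size factor per library, and 100% of values came back as whole reads within a tolerance of 0.1. No sequences or coordinates are printed, as no genome was used here.

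Genes with at least 10 normalized counts in at least 5 libraries were tested with limma 3.58.1 (R 4.3.3, trend, log2 of normalized count + 1), with dose group as block. The F test compared the 5 sets, and contrasts set each set against the mean of the other 4. A call needed a Benjamini-Hochberg adjusted p under 0.05 and, for contrasts, a 2-fold difference. Adjusted p-values are over all genes tested. edgeR 4.0.16 and DESeq2 1.42.0 on the recovered reads were alternatives, beside other scalings, filters, pseudocounts and left-out libraries. On simulated data for the set A contrast over 19583 genes, 77% of 1.5-fold and 96% of 2-fold changes were recovered, with 8 false calls. These rates are for adjusted p under 0.05 with no fold minimum, so they do not describe the 2-fold calls. Only 100 genes per fold were changed there, against 14631 genes that differed in set A, so the rates need not hold for the data.

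Named genes were, per set, the 4 furthest above and the 4 furthest below the other sets at a mean of at least 100 normalized counts, the 2 with the largest difference under any name, up to 6 members per gene list with the largest range of set means, and genes near 0 in a whole set. The comparison and the gene lists were chosen with earlier results of these data known, and genes of the dose section were picked after their values were seen. Libraries with the same letter deviated together from their dose group means, with correlations across genes of 0.194 to 0.864 (median 0.591) over 75 pairs, against -0.717 to 0.54 for different letters, so the letters were taken to pair the libraries. Within a dose group these deviations cancel out, which by itself lowers the correlations between different letters. The correlations also describe the same differences as the F test over sets. P-values measure only the spread between these pools, which may be technical. Precision is limited by depth, and no value here covers error other than that between libraries.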

Additional observations from a re-analysis of the deposited data

Results flagged for a closer look

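Within a set, 160 groups of 6 libraries were examined for 1 library far from the other 5. In 16 of them the gap to the nearest library was too large a part of the group's range for 6 values by Dixon's critical value. For normally distributed values chance gives about 1 in 20 groups. Whether normalized counts follow that distribution was not tested, so the number of groups due to chance is not known.

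In the set A control pool, the bile salt pump gene ABCB11 had 32.4 normalized counts against 7.09 to 15.5 in the other 5 pools of the set, and RAB3A ENSDARG00000043835 had 16.2 against 7.09 to 10.3. The set A library at 405 µM had 13946 of the ribosomal gene rplp2 against 9038 to 10459, and it was the deepest, with 30.7 M reads against 7.92 to 8.79. In set B, RRM2 ENSDARG00000020711 had 4.59 at 40.5 µM against 0 to 0.905, and tnfrsf14 had 197 in the control pool against 66.0 to 114. The summed exocrine pancreas list of set B was 32971 at 405 µM against 18485 to 22824. This was not particular to set B: the 405 µM pool exceeded its control in the other sets too. Control and 405 µM sums were 8531 and 27329.5 in A, 21028 and 34900 in C, 4193 and 7913 in D, and 30000.5 and 39495 in E. The list was not tested by dose. Depth was low in the set B control, at 8.32 M reads against 9.21 to 9.64, and high in set C at 405 µM, at 11.3 against 8.29 to 9.35.

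The set D library at 40.5 µM was high in 3 genes. It had 3649.9 normalized counts of eno2 against 2562 to 2815, 645 of rcvrna against 258 to 379, and 624 of rn7sl1 against 35.7 to 106. CEL ENSDARG00000017490 had 132 in set D at 405 µM against 21.5 to 44.1, and the summed pancreas list of set D was also highest in that pool. In set E, gria4a had 393 at 40.5 µM against 294 to 329, and rn7sl1 had 817 at 0.405 µM against 40.2 to 72.2. The provisional gene si:ch1073-425j19.2 had 1.19 in set E at 0.405 µM against 0 in the other 5 pools.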

How the results depend on the processing

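The count of genes differing between the sets stayed within 1.5 times its value of 17295 under every alternative run, from 12520 without set A to 18988 with no filter. The set counts moved more. With a pseudocount of 10 they were 2714 in A, 34 in B, 31 in C, 491 in D and 704 in E, and with a level minimum of 50 they were 2643, 73, 76, 587 and 810. With no filter B had 218. With no fold minimum the counts were 14631, 6727, 6930, 9664 and 11803, and against a 1.5-fold minimum B had 6 and C 4. Leaving out 1 library or 1 whole set gave 4012 to 5210 in A, 80 to 633 in B, 46 to 710 in C, 841 to 1493 in D and 892 to 2098 in E. The counts of B and C rest on which other sets they are compared with: without set A they were 80 and 46, and without set E 633 and 710. The variance share of the set was 73.0% with a pseudocount of 10, 66.3% with quantile normalization and 54.0 to 71.6% with libraries left out, and that of dose was 6.22%, 7.47% and 6.01 to 11.8%. The cause of these shifts was not tested. No gene was near 0 in a set when the other set had to reach 100.

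With the replicate block, 44 genes differed between dose groups, against 8 without it. Without the 2 set C libraries at 40.5 and 4.05 µM, chosen after seeing the data, the counts were 86 and 14. Of 13927 checks over 276 named genes, 13906 kept their direction and side of the threshold, 21 in 13 genes lost the call and 0 reversed. These genes had been picked for large differences between sets in the same libraries, which by itself favours agreement. Many of the checks also reused nearly all of the libraries, so the checks are not independent. Their count cannot show how far the results would hold in other pools. Depth of 7.78 M reads limits genes under 10 normalized counts, which were not tested.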
